A study of Mus musculus with 6 samples.

Results

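Expression of 9 crystallin genes and the small heat shock gene Hspb1 was followed in RNA sequencing of mouse retina, with each library described on its own. The 10 genes were chosen by symbol, Cryaa, Cryab, Cryba1, Cryba2, Cryba4, Crybb1, Crybb2, Crybb3, Crygs and Hspb1, and all 10 were found among the 49997 genes of the deposited table. Polyadenylated RNA came from 1 retina per library. The 3 libraries of the group called Samd7 KO carry the genotype Samd7 knockout (-10A) and come from postnatal day 31. Those of the wild type (c57Bl6/j) come from postnatal day 36. All retinas were from males, and age and genotype cannot be told apart. The study's title concerns the part of Samd7, a nuclear sterile alpha motif protein, in keeping cell identity and the use of 1 receptor per photoreceptor. No strain is named for the knockout, and the meaning of -10A is not explained by the labels. Whether the 3 retinas of a group came from different mice is not stated, and the spread behind each p-value may therefore be technical.

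Crystallins are the soluble proteins that fill the fibre cells of the eye lens and give it its refractive power. The alpha crystallins Cryaa and Cryab belong to the small heat shock protein family together with Hspb1, and they hold unfolding proteins in solution. The beta and gamma crystallins are a separate family of compact structural proteins built from Greek key motifs. Cryab is made in many tissues, including retinal glia and pigment epithelium, while Cryaa and most beta and gamma crystallins have their main site of expression in the lens. Large MAF transcription factors switch on lens crystallin genes, and heat shock factors switch on stress-responsive chaperone genes.

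Promoter sequences are shown because lens crystallin genes and Hspb1 answer to different transcription factors. A window of 250 bases before the transcript start was taken from RefSeq (GRCm38.p6) for 9 of the 10 genes, and Cryab had no entry. The 2 motifs searched, on both strands, were the MAF core motif TGCTGAC and the heat shock element pair GAANNTTC, which cannot overlap each other. TGCTGAC stood in 4 of the 8 lens crystallin windows, against 3.81% of 32851 RefSeq windows of the same length. GAANNTTC stood in 0 of these 8 windows and at 2 places in the Hspb1 window, against 6.69% of all windows. The 5 windows that held a match are printed below 5′ to 3′ in the direction of transcription, with the matched letters in capitals.
Cryaa (chr17:31677681-31677930, plus strand): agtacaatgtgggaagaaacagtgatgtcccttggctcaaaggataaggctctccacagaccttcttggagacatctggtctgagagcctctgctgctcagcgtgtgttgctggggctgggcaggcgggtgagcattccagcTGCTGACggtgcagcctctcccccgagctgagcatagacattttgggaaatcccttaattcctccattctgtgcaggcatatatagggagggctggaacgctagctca
Cryba1 (chr11:77725294-77725543, minus strand): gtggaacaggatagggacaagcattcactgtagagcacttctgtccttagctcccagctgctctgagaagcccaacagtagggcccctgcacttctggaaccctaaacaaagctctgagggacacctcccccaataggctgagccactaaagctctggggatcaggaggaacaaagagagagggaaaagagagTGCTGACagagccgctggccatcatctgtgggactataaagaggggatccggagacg
Cryba4 (chr5:112252519-112252768, minus strand): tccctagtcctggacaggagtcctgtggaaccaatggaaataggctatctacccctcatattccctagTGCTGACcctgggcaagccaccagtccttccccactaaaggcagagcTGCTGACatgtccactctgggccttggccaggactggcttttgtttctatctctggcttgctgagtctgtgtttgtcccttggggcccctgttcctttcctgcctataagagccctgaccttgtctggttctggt
Crybb1 (chr5:112255570-112255819, plus strand): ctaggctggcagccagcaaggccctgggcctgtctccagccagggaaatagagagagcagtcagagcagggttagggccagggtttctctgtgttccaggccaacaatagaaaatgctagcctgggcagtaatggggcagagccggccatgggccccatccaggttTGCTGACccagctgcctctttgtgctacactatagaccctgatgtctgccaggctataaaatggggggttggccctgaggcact
Hspb1 (chr5:135887669-135887918, plus strand): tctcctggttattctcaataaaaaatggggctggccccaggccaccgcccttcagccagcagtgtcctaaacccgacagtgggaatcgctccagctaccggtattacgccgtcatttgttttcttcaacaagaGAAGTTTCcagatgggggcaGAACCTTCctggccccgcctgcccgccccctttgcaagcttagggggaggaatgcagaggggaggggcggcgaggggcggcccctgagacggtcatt
The match began 108 bases before the start in Cryaa, 57 in Cryba1 and 84 in Crybb1. Cryba4 had a match at 182 bases and another at 135 bases. In Hspb1 the matches began 117 and 97 bases before the start. A match is a run of letters and not a measured binding site.

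The libraries were deep and of similar size. The recovered gene reads summed to 44.2 to 53.1 M in the Samd7 KO libraries and to 47.7 to 62.8 M in wild type. Values below are normalized reads, taken to be gene counts that the authors divided by a size factor for each library, in which 1 read was worth 0.856 to 1.13. Samd7 itself had 44932 to 57837 normalized reads in the libraries labelled Samd7 KO and 6349 to 8141 in wild type, 6.57-fold higher under the knockout label (limma adjusted p = 1.54e-08), and directions below rest on the labels as given. Photoreceptor transcripts dominated every library, as Gnat1, the rod transducin subunit, had 770845 to 834247 normalized reads in Samd7 KO and 1362920 to 1541450 in wild type. Among the 20277 genes with at least 10 normalized reads in at least 3 libraries, limma-trend called 2432 at an adjusted p under 0.05 (12.0%, of which 5.21% lower and 6.79% higher in Samd7 KO). Of the 10 genes, 5 passed that filter (Cryab, Cryba4, Crybb1, Crybb3 and Hspb1) and the other 5 were not tested in the main test. Of the 5 tested, 1 was called, Hspb1, lower in Samd7 KO.

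The library labelled wild type 3 held far more lens crystallin RNA than any other. Its value was the highest of the 6 libraries in 9 of the 10 genes, against 12.1% of tested genes and 13.7% of genes with reads. The exception was Hspb1, which was highest in wild type 1. Summed over the 8 lens crystallins (the 10 genes without Cryab and Hspb1), the Samd7 KO libraries had 178, 122 and 128 normalized reads, and wild type 1, 2 and 3 had 163, 166 and 8077. The sum in wild type 3 was 45.3 times that of the highest other library, with a 95% interval of 38.7 to 53.4 (exact binomial, counting error only). The other 5 libraries lay close together, with the KO and wild-type ranges overlapping. The 8 genes took 0.0155% of the gene reads of wild type 3 and 2.43e-04% to 3.57e-04% in the others.

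**Figure D1:**
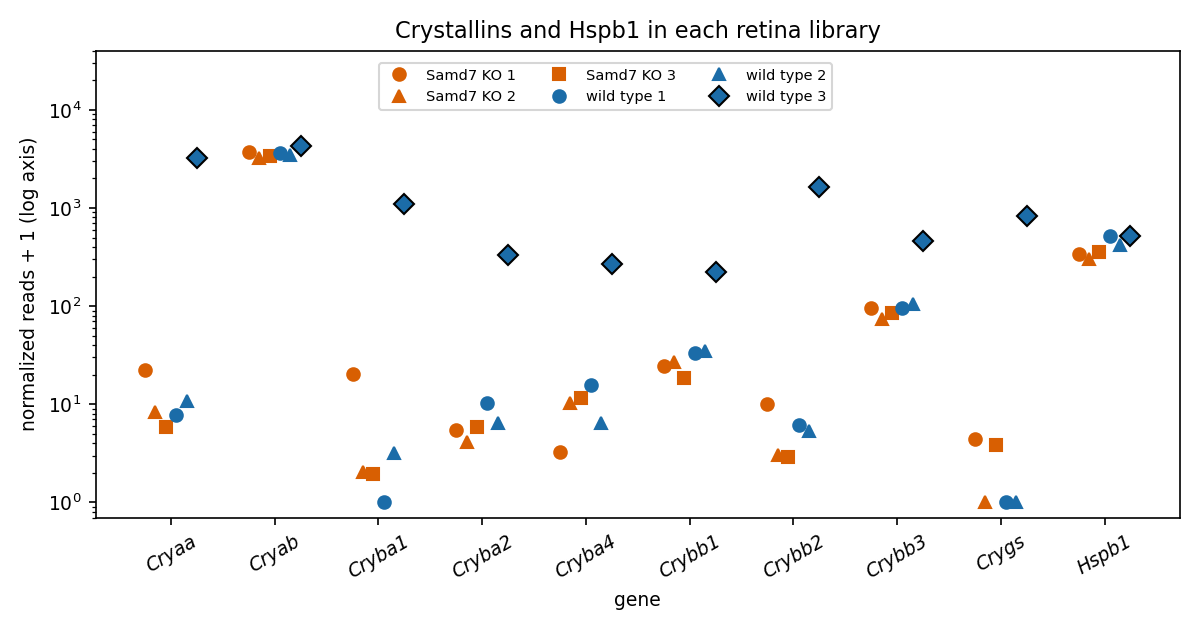
Normalized reads plus 1 of each gene (log axis) in each library, Samd7 KO in orange and wild type in blue, 1 marker per library. The outlined diamond of wild type 3 stands above the other 5 markers in each of the 8 lens crystallins, with Crybb3 the closest (465 against at most 105 normalized reads), whereas in Cryab and Hspb1 it lies close to the others.

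Cryaa encodes the alpha A chaperone of the lens (chr17:31677931-31681730, plus strand, 4 exons). It had 21.4, 7.26 and 4.81 normalized reads in Samd7 KO 1, 2 and 3, and 6.84, 9.74 and 3246 in wild type 1, 2 and 3. Wild type 3 was 151 times Samd7 KO 1, the next highest library (95% interval 96.8 to 252, 3449 against 19 reads). The groups overlapped, with wild type 1 and 2 inside the KO range. Its wild-type mean of 1088 ± 1870 (SD, n = 3) has an SD larger than itself and describes no library. Without wild type 3 the 3 KO libraries together had 31 reads and wild type 1 and 2 had 17, a ratio at equal scale of 1.32 (95% interval 0.709 to 2.54).

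The acidic beta crystallins pair with basic ones in the lens. Cryba1, whose mRNA yields both the A3 and A1 chains (chr11:77718614-77725293, minus strand, 6 exons), had 19.2, 1.04 and 0.962 normalized reads in Samd7 KO 1, 2 and 3 and 0, 2.16 and 1096 in wild type 1, 2 and 3. Wild type 3 was 57.1 times Samd7 KO 1 (35.5 to 98.4), and a count of 0 in wild type 1 allows up to 2.57 normalized reads. Apart from wild type 3, Samd7 KO 1 was the one library with more than a few reads, 17 against at most 2 in the other 4. Without wild type 3 the reads of Cryba1 were 6.88 times higher in KO (1.66 to 60.9), 19 reads against 2, of which Samd7 KO 1 gave 17.

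Cryba2 (chr1:74889934-74898842, minus strand, 5 exons) had 4.51, 3.11 and 4.81 normalized reads in Samd7 KO 1, 2 and 3 and 9.41, 5.41 and 328 in wild type 1, 2 and 3. Its value in wild type 3 was 34.8 times that in wild type 1 (19.2 to 70.4). The groups did not overlap, but wild type 2 exceeded Samd7 KO 3 at 5 reads each, so that the gap is smaller than counting error. Without wild type 3 the KO to wild-type ratio was 0.543 (0.235 to 1.22).

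Cryba4 (chr5:112246492-112263625, minus strand, 6 exons) had 2.26, 9.33 and 10.6 normalized reads in Samd7 KO 1, 2 and 3 and 14.5, 5.41 and 264 in wild type 1, 2 and 3. Wild type 3 was 18.2 times wild type 1 (11.2 to 31.7), while wild type 2 lay below Samd7 KO 2 and 3. It passed the filter because Samd7 KO 3, wild type 1 and wild type 3 reached the minimum. Its log2 fold change, Samd7 KO minus wild type on the log2(value + 1) scale, was -2.03 with a 95% interval of -4.35 to 0.29 (limma adjusted p = 0.250). Leaving out wild type 3 gave -0.45, with an interval of -1.97 to 1.07 (limma adjusted p = 0.773).

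Among the basic beta crystallins, Crybb2, the most abundant beta crystallin of the lens (chr5:113058258-113070117, minus strand, 7 exons), had 9.03, 2.07 and 1.92 normalized reads in Samd7 KO 1, 2 and 3 and 5.13, 4.33 and 1623 in wild type 1, 2 and 3. The excess of wild type 3 over Samd7 KO 1 was 180 times (91.0 to 417, 1724 against 8 reads). The groups overlapped, with Samd7 KO 1 above both other wild-type libraries. Without wild type 3 the ratio of KO to wild type was 0.869 (0.344 to 2.25).

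Crybb1, a basic beta crystallin with long terminal arms (chr5:112254563-112269585, plus strand, 6 exons), had 23.7, 25.9 and 17.3 normalized reads in Samd7 KO 1, 2 and 3 and 32.5, 33.6 and 219 in wild type 1, 2 and 3. All wild-type libraries were above all KO libraries, and wild type 3 was 6.54 times wild type 2 (4.48 to 9.84). The log2 fold change was -1.46 (95% interval -2.73 to -0.19, limma adjusted p = 0.132). It moved to -0.56 without wild type 3 (-1.31 to 0.18, limma adjusted p = 0.400). By counting error alone, the KO libraries had 0.672 times the reads of wild type 1 and 2 (0.470 to 0.958).

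Crybb3 (chr5:113075839-113082236, minus strand, 6 exons) had 94.8, 73.6 and 84.7 normalized reads in Samd7 KO 1, 2 and 3 and 95.0, 105 and 465 in wild type 1, 2 and 3. The excess of wild type 3 over wild type 2 was 4.43 times (3.56 to 5.56). The groups did not overlap, although Samd7 KO 1 and wild type 1 differed by less than 1 normalized read. The log2 fold change was -0.98 (-1.99 to 0.02, limma adjusted p = 0.199) and -0.25 without wild type 3 (-0.73 to 0.23, limma adjusted p = 0.582).

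Of the 5 tested genes, 3 had groups that did not overlap (Crybb1, Crybb3 and Hspb1), with KO below wild type in each, as did 31.1% of all tested genes in either direction and 15.2% in this one. The pairs of beta genes on chromosome 5 lie close together. By RefSeq bounds Cryba4 and Crybb1 overlap by 9063 bases on opposite strands, and Crybb2 and Crybb3 lie 5721 bases apart. The transcript starts used for the promoter windows of Cryba4 and Crybb1 lie 3302 bases apart, with both genes read away from each other. Whether exons of both fall in the shared stretch was not computed. No source used here gives the strand setting of the counting, and reads in the shared stretch cannot be assigned to either gene with certainty. Cryba4 was below Crybb1 in the other 5 libraries, from 2.26 against 23.7 normalized reads in Samd7 KO 1 to 10.6 against 17.3 in Samd7 KO 3, and above it in wild type 3, at 264 against 219.

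Crygs encodes gamma S, the gamma crystallin of the adult lens cortex (chr16:22805203-22811410, minus strand, 3 exons). It had 3.39, 0 and 2.89 normalized reads in Samd7 KO 1, 2 and 3 and 0, 0 and 836 in wild type 1, 2 and 3. Wild type 3 was 247 times Samd7 KO 1, with a wide interval of 84.2 to 1199 because the comparison is 888 reads against 3. The zeros of Samd7 KO 2, wild type 1 and wild type 2 allow up to 3.11, 2.57 and 3.25 normalized reads. With wild type 3 left out, Crygs was at the detection limit in every library and gives no comparison.

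Per kilobase of the longest GENCODE transcript, the order of the genes changed with the library. In the 5 libraries other than wild type 3, Cryab led with 2907 to 3359 normalized reads per kilobase, then Hspb1 with 327 to 559, Crybb3 with 82.5 to 118 and Crybb1 with 19.6 to 38.0, and these 4 ranges did not overlap. The other 6 genes lay between 0 and 24.7 per kilobase with overlapping ranges, so that their order is not resolved. In wild type 3 the order was Cryab at 3815 per kilobase, Cryaa at 2564, Crybb2 at 1791, Cryba1 at 1408, Crygs at 955, Hspb1 at 555, Crybb3 at 521, Cryba2 at 455, Cryba4 at 327 and Crybb1 at 249. Crybb3 and Crybb1, which led the lens crystallins in the other libraries, were thus among the lower ones in wild type 3.

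The excess of wild type 3 lay in a small set of genes. Of 21946 genes with at least 10 normalized reads in at least 1 library, 14 were at least 8-fold above every other library in wild type 3 on the value + 1 scale (0.0638%), and 0 were so in each of the other 5 libraries. These 14 were Cryaa, Cryba1, Cryba2, Cryba4, Crybb2 and Crygs, the gamma crystallins Crygb, Crygc, Crygd, Cryge and Crygf, and the lens genes Foxe3, Lctl and Lim2. Crybb1 and Crybb3, with higher levels elsewhere, fell short of that bound.

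The named genes outside the 10 whose pattern over the 6 libraries was most like that of the lens crystallins were gamma crystallins and lens genes. Likeness was the Euclidean distance between a gene's centred log2(value + 1) profile and the median profile of the 8 lens crystallins, over 16052 candidates. Candidates had at least 10 normalized reads in at least 1 library, and gene models with Gm-number or Rik names were left out. Crygd, Crygf, Cryge, Lim2, Foxe3 and Lctl reached that level only in wild type 3. The nearest 8 were Crygd at a distance of 1.63, Crygf at 2.29, Cryge at 2.54, Lim2 at 2.57, Foxe3 at 2.73, Crygb at 2.85, Lctl at 2.96 and Crygc at 3.17. The 8 lens crystallins themselves lay at 1.47 (Cryba2) to 4.21 (Crybb3). These distances rest mostly on wild type 3 and describe 6 libraries.

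Crygb had 509 normalized reads in wild type 3, 12.4 in Samd7 KO 1 and at most 0.962 in the other 4 libraries. Crygc had 505 in wild type 3, 12.4 in Samd7 KO 1 and at most 2.07 elsewhere. Crygd reached 144 in wild type 3 against at most 2.26. These genes form a cluster of close copies, so that reads may be split among Cryga to Crygf in a way the counting decides. Crygn, a more distant gamma crystallin, had 7.90, 7.26 and 6.74 normalized reads in Samd7 KO 1, 2 and 3 and 18.0, 16.2 and 16.0 in wild type 1, 2 and 3. Its groups did not overlap, and its log2 fold change of -1.10 (-1.90 to -0.29) missed the threshold (limma adjusted p = 0.0773).

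Of 12 lens fibre and lens epithelium markers, 10 were highest in wild type 3, and their sum was 413 normalized reads there against 108 to 137 in the other 5 libraries. Lim2, a membrane protein of lens fibres, had 43.3 normalized reads in wild type 3 and 0 to 2.16 elsewhere. Foxe3, a transcription factor of the lens epithelium, had 16.0 and was at 0 in the other 5, as was Lctl at 13.2. Mip, the water channel of lens fibres, had 32.0 against 0.962 to 3.42. The beaded filament genes Bfsp1 and Bfsp2 had 75.3 and 85.7 in wild type 3 but also 21.8 to 48.5 in every other library. Lgsn and Grifin, further genes of lens fibres, had 62.1 and 48.9 in wild type 3 and were each lower in all other libraries. Dnase2b, the nuclease that clears lens fibre nuclei, was at 0 in wild type 3. Of the 12, 4 were tested and limma called 0 of them (1 at an unadjusted p under 0.05, and 0 by edgeR and by DESeq2).

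**Figure D2:**
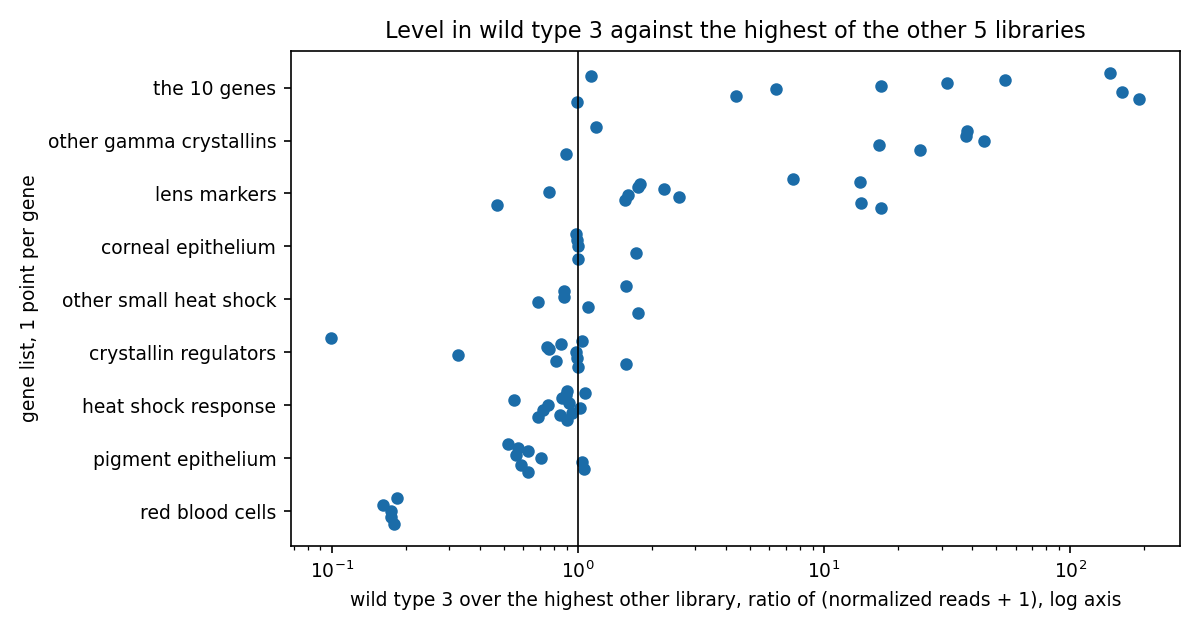
Ratio of wild type 3 to the highest of the other 5 libraries, computed on normalized reads plus 1 (log axis), with 1 point per gene and 1 row per gene list. The 8 lens crystallins, 5 other gamma crystallins and 4 lens markers lie far to the right of 1, while corneal, small heat shock, pigment epithelium and red blood cell genes lie below a ratio of 2.

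Markers of other tissues next to the retina gave a mixed picture. The corneal epithelium marker Krt14 was at 0 in all libraries and Krt5 had at most 0.962 normalized reads, while Aldh3a1, an abundant enzyme of the corneal epithelium, had 41.4 in wild type 3 and 4.81 to 23.7 elsewhere. Krt12, the next most abundant of the corneal list, had 12.2 in wild type 3 and 6.22 to 12.5 elsewhere. All 5 corneal markers summed to 54.6 in wild type 3, of which Aldh3a1 gave 41.4, and to 18.3 to 31.6 in the other libraries. The sum of 9 pigment epithelium markers was 6108, 6156 and 3775 in wild type 1, 2 and 3, so that wild type 3 was the lowest of its group, and 1059 to 2252 in Samd7 KO. The sum of 5 red blood cell markers was also lowest in wild type 3, at 1467 against 1821 to 8293 in the others. The voom fit covered the 20277 genes of the main filter, which left out Cryaa, Cryba1, Cryba2, Crybb2 and Crygs. In that fit wild type 3 had the highest quality weight of the 6 libraries, 2.36 against 0.427 to 2.05. The genes left out had no part in this weight. How lens RNA came to be in wild type 3 was not tested.

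**Figure D3:**
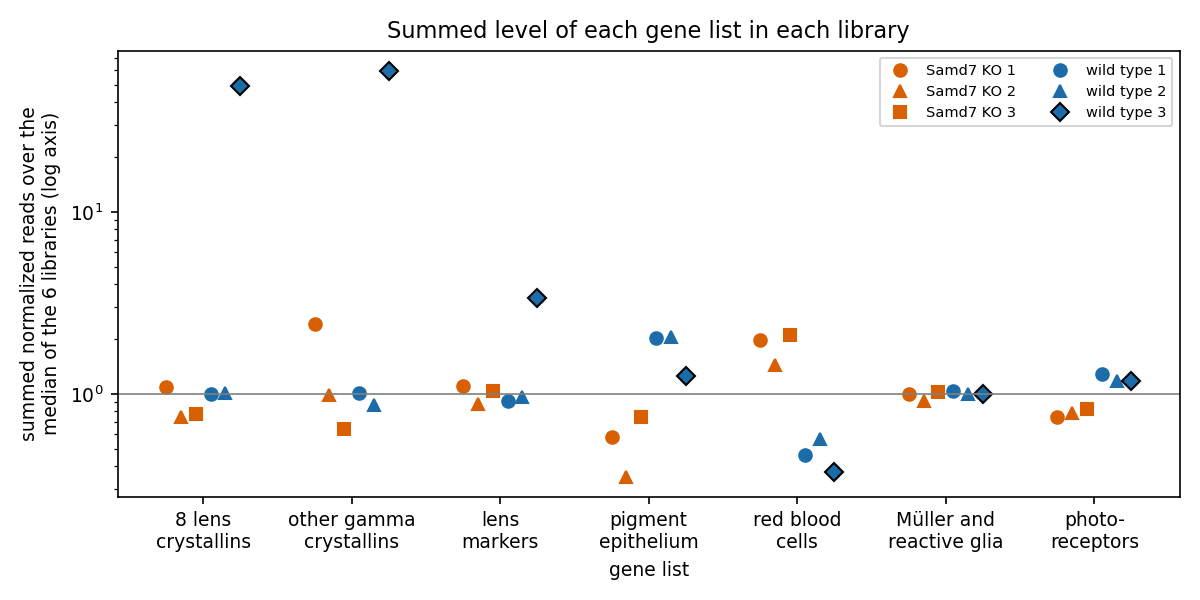
Summed normalized reads of each gene list in each library, divided by the median of the 6 libraries (log axis), with Samd7 KO in orange and wild type in blue. Wild type 3 stands apart in the lens crystallins, at 8077 against 122 to 178 in the others, and in the other gamma crystallins and the lens markers, but not in the glial or photoreceptor lists.

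Samd7 KO 1 held low counts of some of the same transcripts. Of 13 crystallins (the 8 and Crygb to Crygf), it exceeded the other 4 libraries apart from wild type 3 in 7, Cryaa, Cryba1, Crybb2, Crygs, Crygb, Crygc and Crygd. The share of all genes in which it did so was not computed, so this count has no background to be read against. Crybb2 had 8 reads in Samd7 KO 1 against at most 6 in those 4 libraries, and Crygd had 2 against at most 1, differences within counting error. As a share of the wild type 3 value, it had 0.660% of Cryaa (95% interval 0.397 to 1.03), 1.75% of Cryba1 (1.02 to 2.82), 2.44% of Crygb (1.21 to 4.40) and 2.46% of Crygc (1.22 to 4.44). The counts behind these shares were 19, 17, 11 and 11 reads. Lim2, Foxe3 and Lctl were at 0 in Samd7 KO 1. The 3 reads of Crygs equal the detection floor, and Samd7 KO 3 also had 3.

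The authors' deposited table treats the same genes in a particular way. Of its 33327 genes with reads, 9 have a fold change but no p-value (0.0270%), and all 9 are crystallins: Cryaa, Cryba1, Cryba2, Cryba4, Crybb2, Crygs, Crygb, Crygc and Crygd. In the authors' deposited table the log2 fold change of Crygs is -7.06, that of Crybb2 -6.97 and that of Cryaa -6.61. DESeq2 leaves the p-value blank when 1 library has too large a Cook's distance, a measure of how far a single library moves the fit. DESeq2 run on the recovered reads left out the p-value of the same 9 genes, and for each of them the largest distance was that of wild type 3, at 21.6 to 36.2 against a cutoff of 18. The second largest distance was 5.84 to 9.08.

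Calls among these crystallins depended on the treatment of 1 library and on the test. Cryba1, Cryba4, Crygs, Crygb, Crygc and Crygd were not called with the Cook's distance exclusion off (DESeq2 adjusted p = 0.0933 to 0.421). With this exclusion off, DESeq2 called Cryaa (adjusted p = 0.0147), Cryba2 (adjusted p = 0.0258), Crybb2 (adjusted p = 0.0104) and Hspb1 lower in Samd7 KO, 4 of 10 genes against 14.3% of genes with an adjusted p (6.05% lower). edgeR's quasi-likelihood test on all genes with at least 10 normalized reads in 1 library called 5 of 10, Cryaa, Cryba2, Crybb2, Crygs and Hspb1, all lower, against 11.3% of 21946 genes (4.84% lower). The adjusted p-values of the 4 crystallins there were 0.0356 to 0.0489. Cryba2, Crybb2 and Crygs passed this filter only through wild type 3, with at most 9.41, 9.03 and 3.39 normalized reads elsewhere. limma-trend on the same genes called 1 of 10, Hspb1, against 11.0% of genes (4.78% lower). When wild type 3 was left out, edgeR called 0 of 10 against 6.15% of genes (2.48% lower) and limma called 0 of 10 against 5.81% (2.23% lower), each with 1 gene at an unadjusted p under 0.05. These fits kept the same genes. Cryba2, Crybb2 and Crygs then had few reads left, and the absence of a call says little about them.

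**Figure D4:**
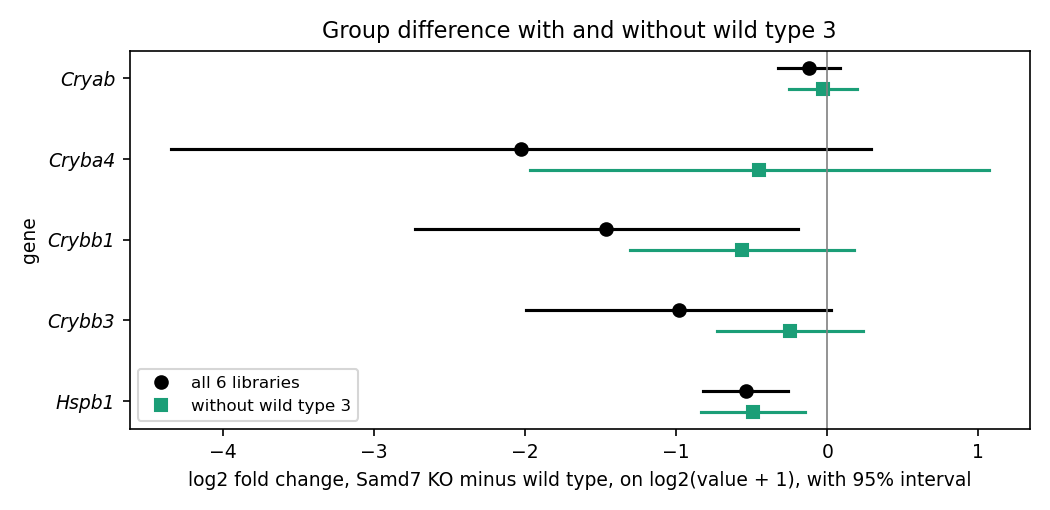
Log2 fold change (Samd7 KO minus wild type, log2(value + 1) scale) of the 5 tested genes with its 95% interval, from all 6 libraries in black and without wild type 3 in green. Cryba4, Crybb1 and Crybb3 move toward 0 without wild type 3, to -0.45, -0.56 and -0.25, whereas Hspb1 moves from -0.54 to -0.49.

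Cryab and Hspb1 were the 2 of the 10 genes with the highest levels outside wild type 3. Cryab encodes the alpha B chaperone (chr9:50745951-50756636, plus strand, 4 exons) and was the most abundant of the 10 genes per kilobase in every library. It had 3752, 3247 and 3388 normalized reads in Samd7 KO 1, 2 and 3 and 3605, 3458 and 4261 in wild type 1, 2 and 3. The groups overlapped, with wild type 1 and 2 inside the KO range and wild type 3 above it. The means were 3463 ± 261 in Samd7 KO, against 3775 ± 428 in the wild-type libraries (SD, n = 3 each). The log2 fold change was -0.12 (95% interval -0.33 to 0.09, limma adjusted p = 0.455), and -0.03 without wild type 3 (-0.26 to 0.19). Wild type 3 exceeded Samd7 KO 1, the next highest library, by 1.14 times (1.09 to 1.19, counting error only), an excess of another order than in Cryaa. Hspb2 lies within the RefSeq bounds of Cryab, over 1283 bases, and had 6.74 to 30.1 normalized reads.

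Hspb1 encodes a small heat shock protein that protects actin filaments and is induced by stress (chr5:135887919-135889563, plus strand, 2 exons). It had 341, 304 and 354 normalized reads in Samd7 KO 1, 2 and 3 and 520, 422 and 516 in wild type 1, 2 and 3. Every KO library was below every wild-type library, and wild type 3 lay within the wild-type range. The mean was 333 ± 26.1 in Samd7 KO, against 486 ± 55.4 in the wild-type libraries (SD, n = 3 each), 1.46-fold lower in Samd7 KO. Its log2 fold change was -0.54 with an SE of 0.13 (95% interval -0.82 to -0.26, limma adjusted p = 0.0171), lower in 3 of 3 libraries, and 5.21% of tested genes were called lower. The call was lost without wild type 1 (adjusted p = 0.0570) and without wild type 3 (adjusted p = 0.0952, where 6.48% of genes were called and 2.51% called lower), with log2 fold changes of -0.49 and -0.49. The adjusted p ranged from 0.00151 to 0.103 over the alternatives. The authors' deposited table gives a log2 fold change of -0.55 and an adjusted p of 0.00215.

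**Figure D5:**
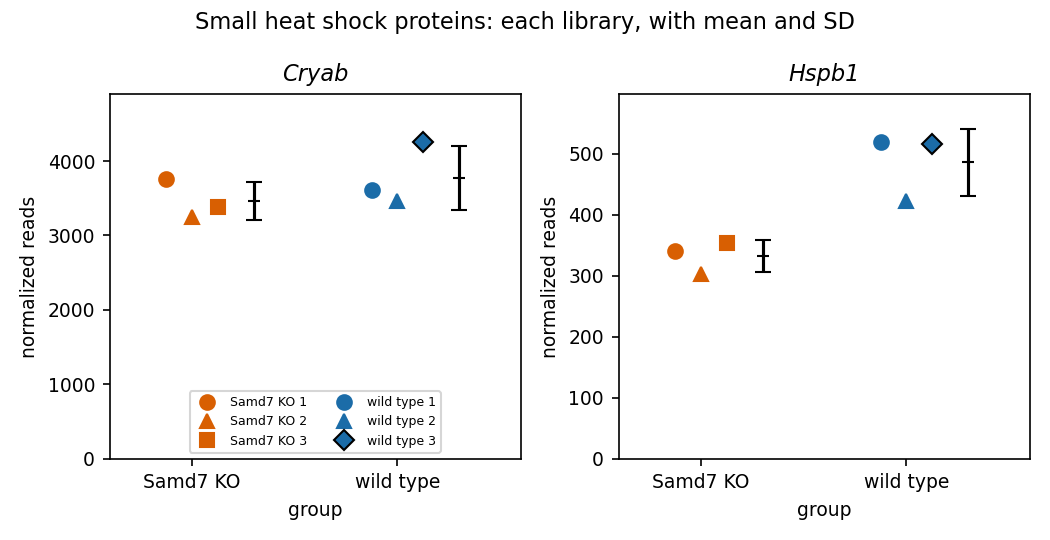
Normalized reads of Cryab and Hspb1 in each library (1 marker per library, axes from 0), with the mean and SD of each group (n = 3) beside the markers. The Cryab groups overlap, at 3247 to 3752 in Samd7 KO and 3458 to 4261 in wild type, and the Hspb1 groups do not, at 304 to 354 and 422 to 520.

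Cell type markers also differed between the groups in which Hspb1 differed. In bulk tissue, fewer cells of a type and less RNA per cell cannot be told apart. Of 9 pigment epithelium markers limma called 8 lower, of 5 red blood cell markers 5 higher, and of 7 Müller and reactive glia markers 3 higher and 1 lower. The shares over all tested genes were 5.21% lower and 6.79% higher. Glul, the glutamine synthetase of Müller glia, was 1.44-fold lower (means ± SD of 27206 ± 2523 and 39128 ± 333 over n = 3, limma adjusted p = 4.07e-04), and Vim, an intermediate filament gene of the same cells, was 1.28-fold higher (limma adjusted p = 0.00837). The glial sums overlapped, at 77536 to 86339 normalized reads in Samd7 KO and 84053 to 87810 in wild type. Of 5 smooth muscle and 5 oligodendrocyte markers, 3 of each were tested and limma called 0 of them (0 and 2 at an unadjusted p under 0.05, 0 and 0 by edgeR, 0 and 1 by DESeq2). The part of these cell types in the Hspb1 difference was not tested.

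No other small heat shock gene of the list passed the test. Hspb6 had 10985 ± 738 normalized reads in Samd7 KO and 11073 ± 755 in wild type, and its log2 fold change of -0.01 had a 95% interval of -0.18 to 0.15. Hspb8, a partner of the autophagy factor Bag3, had 395 ± 27.0 and 397 ± 56.9. Of the 6 on the list, 4 were tested and limma called 0 (0 at an unadjusted p under 0.05, and 0 by edgeR and by DESeq2), with a median log2 fold change of -0.01 beside 0.00 over all tested genes.

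Among 13 heat shock factors and chaperones, all tested, limma called 3 higher and 1 lower in Samd7 KO, and 9 did not pass. Over all tested genes, 6.79% were called higher and 5.21% lower. Hspa8, the constitutive Hsp70-type chaperone, was 1.28-fold higher (means ± SD of 60013 ± 1482 and 47055 ± 3382 over n = 3, limma adjusted p = 0.00334). The other 3, named here after their values were seen, were Hsph1, 1.68-fold higher (limma adjusted p = 9.20e-05), Chordc1, 1.36-fold higher (limma adjusted p = 0.0107), and Hspa1b, 1.28-fold lower (limma adjusted p = 0.0241). The calls of Chordc1 and Hspa1b were lost without Samd7 KO 3 or wild type 3, and that of Hspa1b also without wild type 1. Hspa1b, like Hspb1 a stress-inducible gene, is a near copy of Hspa1a, and reads may be split between them. Hsp90aa1 (limma adjusted p = 0.742) had 44492 ± 935 and 45542 ± 731 normalized reads in Samd7 KO and wild type.

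Among 11 regulators of crystallin genes, 9 were tested, and limma called 1 higher and 0 lower, beside 6.79% and 5.21% of all tested genes. Of these regulators, 4 had an unadjusted p under 0.05 in limma, and edgeR called 1 and DESeq2 2. Maf, the large MAF factor of lens fibre cells, had 1946, 1322 and 1372 normalized reads in Samd7 KO 1, 2 and 3 and 170, 143 and 193 in wild type 1, 2 and 3. It was 9.17-fold higher in Samd7 KO (limma adjusted p = 1.07e-07), with no overlap. Whether Maf acts on the crystallin genes here was not tested. Pax6, a master regulator of eye development, had 9201 ± 427 and 9664 ± 112 normalized reads (limma adjusted p = 0.528). Maf, named after its values were seen, had no distinct level in wild type 3.

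Of 8 further genes that carry a crystallin name, limma called 2, both higher, beside 12.0% of all tested genes called and 6.79% called higher. Crybg3, a large beta-gamma domain protein, was 3.54-fold higher in Samd7 KO (means ± SD of 1082 ± 242 and 306 ± 41.7 over n = 3, limma adjusted p = 1.45e-05). Crym, a thyroid hormone binding protein, was 1.76-fold higher (6008 ± 421 against 3405 ± 146, limma adjusted p = 2.50e-05). In 0 of the 8 was wild type 3 the highest library.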

How the data were processed

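RNA of 6 mouse retinas (15 amplification cycles, no molecular identifiers described) was analysed from 1 deposited table, with genome builds GRCm38 and mm10 per the submitters' processing notes. These also name cutadapt 3.0, STAR 2.7.3a, HTSeq 0.12.4 and DESeq2, without settings. Per the file headers, the deposited signal is the authors' read count divided by a size factor, beside the authors' log2 fold change, Wald score and p-value. All 166478 values above 0 gave whole reads (100%, within 0.01 reads). The values being normalized, limma-trend on log2(value + 1) was the main test, kept to genes with at least 10 normalized reads in 3 libraries, two-sided with Benjamini-Hochberg adjustment at 0.05. Fold changes are ratios of group means; log2(value + 1) understates changes of low genes. Read-ratio intervals are exact binomial and cover counting error only. edgeR's quasi-likelihood test, DESeq2 and voom on recovered reads were alternatives, as were other filters, pseudocounts, scaling, a fit blocked on replicate number and fits without each library. All 49997 symbols matched RefSeq.

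No 2 replicates agreed within counting noise (reduced chi-square of 7.20 to 33.5). Named were the 10 genes, Samd7, up to 4 genes of each list with the highest mean, and the 8 nearest profiles; named outside that rule, after their values were seen, were Maf, Hsph1, Chordc1, Hspa1b, Mip, Dnase2b and Krt14. The values of a few single genes are not reported here. The 10 genes and all gene lists were chosen with earlier results of these data known. Software was edgeR 4.0.16, limma 3.58.1 and DESeq2 1.42.0 under R 4.3.3.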

Additional observations from a re-analysis of the deposited data

How the results depend on the processing

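The number of genes called, 2432 by limma and 2494 by edgeR on the recovered whole reads, became 4650 with voom quality weights and 1313 to 3247 when 1 library was left out, the lowest without wild type 3 and the highest without Samd7 KO 1; it was 1497 without Samd7 KO 3 and 1470 without wild type 2. With the filter of 1 library, and wild type 3 left out, limma called 1275 and edgeR 1350. Of the called genes 56.6% were higher in Samd7 KO, against 71.2% with total-read scaling, where Hspb1 kept its call (adjusted p = 0.0250). Of the 10 crystallin and small heat shock genes, the 1 called (Hspb1) became 0 without wild type 1 or without wild type 3, so that the range over left-out libraries was 0 to 1. After seeing the data, 5 alternatives were added. The number called was 5 with edgeR and the filter of 1 library, 0 with edgeR or limma under that filter without wild type 3, and 4 with DESeq2 without its outlier rule; DESeq2 on all genes with the rule on called 1. Among 26 genes followed through the alternatives no direction was reversed. Cryaa, Cryba1 and Crygs, untested in the main test, had limma log2 fold changes of -2.66, -1.81 and -1.87 under the filter of 1 library and of 0.16, 1.28 and 1.36 when wild type 3 was also left out, with adjusted p-values of 0.589 to 0.928 in the latter. The call of Slc1a3, a glial transporter, was lost with a replicate block and on leaving out Samd7 KO 3, wild type 2 or wild type 3. A replicate block gave 1624 calls and an adjusted p of 0.0337 for Hspb1; same-numbered libraries did not deviate together (correlations of -0.18 to -0.01, against -0.05 to 0.19 for other pairs), so the numbers do not pair them, and the block changed the calls of Slc1a3 and Hspa1b. For Crygs, Cryba1 and Crybb2, counts of 0 to 6 reads outside wild type 3 and Samd7 KO 1 limit any comparison of the groups.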
